A study of Mus musculus with 20 samples.

Results

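Abca1 and the genes that work with it in cholesterol export were followed in MIN6 cells, which are insulin-secreting beta cells of a mouse insulinoma line, on 20 Affymetrix expression arrays. The members were the probe sets (groups of probes for 1 transcript) that the array annotation lists with Abca1, Abcg1, Apoe, Nr1h2 or Nr1h3 alone. These were 6 probe sets of 4 genes out of 20380 probe sets listed with exactly 1 gene: 3 for Abca1 and 1 each for Abcg1, Apoe and Nr1h3. No probe set used here was listed with Nr1h2 alone, and Nr1h2 was not analysed here. Abca1 was chosen by its measured log2 values. In 1 of its 3 probe sets, 1421840_at, these were lower at 12 than at 2 h of amylin in every matched pair of arrays. The Abca1 values at those times are therefore given as a description with no test.

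The cells were grown in 5.5 or 22.7 mM glucose and were either left untreated or given human amylin, the beta cell peptide that forms amyloid in human islets, at 1, 10 or 20 µM for 2, 12 or 24 h. That makes 10 conditions at each glucose level, and each condition was arrayed 1 time from total RNA. All arrays come from 1 mouse cell line, the treated ones given the human peptide, and the labels record no further genotype or agent. The 2 untreated arrays, 1 per glucose level, carry no time in the labels.

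Export of cholesterol is the route by which cells shed a sterol they cannot break down. Abca1 moves cholesterol and phospholipid from the plasma membrane to lipid-poor apolipoproteins, Abcg1 passes cholesterol on to formed lipoprotein particles, and Apoe is an apolipoprotein that accepts such lipid. The nuclear receptors LXRα, encoded by Nr1h3, and LXRβ, encoded by Nr1h2, bind oxidised sterols and, in cells such as macrophages, switch on Abca1, Abcg1 and Apoe. In mouse beta cells, loss of Abca1 is known to raise cell cholesterol and to impair insulin release.

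The results below turn most often on Abca1, so the stretch just upstream of an annotated start of this gene in GRCm38.p6 is shown. It covers the 250 bases at chr4:53159896-53160145, read 5′ to 3′ on the minus strand, with 3 matches in capitals. The RefSeq span of Abca1 has its 5′ end at 53159988, inside this stretch, so the second and last matches lie within that span. Distances are counted from the start at the end of the stretch shown.
Abca1: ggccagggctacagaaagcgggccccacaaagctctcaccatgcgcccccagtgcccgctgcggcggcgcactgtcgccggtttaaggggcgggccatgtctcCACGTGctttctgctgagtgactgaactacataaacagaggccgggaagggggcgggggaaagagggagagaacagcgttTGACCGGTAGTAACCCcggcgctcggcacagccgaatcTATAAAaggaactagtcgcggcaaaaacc
The first capitals are the E-box letters CACGTG, 147 to 142 bases before the start, which 6.02% of 32841 windows of the same length hold. The second are the reverse strand of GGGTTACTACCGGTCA, 67 to 52 bases before the start, which has 3 mismatches to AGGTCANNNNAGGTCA, the direct repeat that LXR binds with its partner RXR. Both strands were searched, and 18.5% of windows hold a match with at most 3 mismatches, against 0.0152% with none. The last are the TATA letters TATAAA, 29 to 24 bases before the start, found in 12.4% of windows. A match of letters is a description of the sequence and shows no binding.

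The deposited values are on the log2 scale, so a difference of 1 is a doubling, and levels of different probe sets are not set against each other because probes differ in brightness. The arrays held the markers of the labelled cell type: all 14 beta cell markers with a probe set lay above the filter on low values. Their means ran from 7.19 for Kcnj11, close to the filter, to 13.8 for Iapp and 14.6 for Ins2. Of markers of other cell types, 1 of 12 for macrophages, 3 of 11 for fibroblasts, 1 of 7 for endothelium and 1 of 4 for acinar cells lay above the filter. So did 2 of 4 for other islet hormones, among them Gcg, the glucagon gene, at a mean of 11.2. The summed level of the macrophage markers, cells in which LXR targets are prominent, ran from 9.77 to 10.6 in 5.5 mM and from 9.75 to 10.4 in 22.7 mM glucose, and from 9.77 to 10.0 at 2 h and 9.86 to 10.4 at 12 h, with overlap in both cases. The actin 3′ minus 5′ signal, which grows as RNA is broken or its copying stops short, averaged 1.83 at 22.7 mM and 1.22 at 5.5 mM glucose. Of the arrays, 2 stood apart: those of 22.7 mM with 1 µM for 12 h and of 5.5 mM with 10 µM for 24 h had mean correlations with the others of 0.972 and 0.962, against 0.986 to 0.990 in the other 18.

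The members were measured over different parts of the signal range. The mean over the 20 arrays was 8.04 for the Abca1 probe set 1421840_at and 8.91 for the Abcg1 probe set 1423570_at, and these passed the filter, which left out the 40% of genes with the lowest mean. The other Abca1 probe sets, 1421839_at at 5.83 and 1450392_at at 4.06, the Apoe probe set 1432466_a_at at 5.43 and the Nr1h3 probe set 1450444_a_at at 7.07 lay below the limit of 7.08. Genes were therefore called for Abca1 and Abcg1, and all 6 probe sets were also fitted without a filter. Over the 20 arrays the SD was 0.461 for Abca1 1421840_at, 0.244 for Abcg1, 0.168 for Apoe and 0.164 for Nr1h3.

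**Figure D1:**
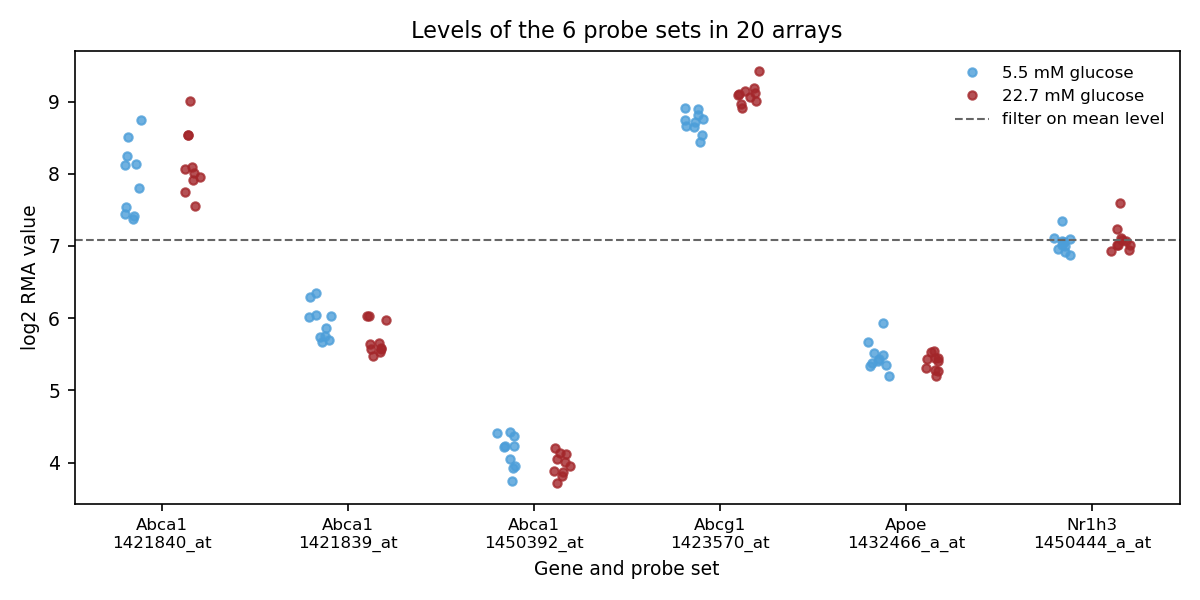
Each point is 1 array's log2 RMA value for 1 of the 6 probe sets named on the x axis, in blue for 5.5 mM and red for 22.7 mM glucose, with 10 arrays each. The dashed line is the filter on the mean level at 7.08, and the Abca1 probe set 1421840_at spreads from 7.38 to 9.01.

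Abca1, the exporter that gave the set its name, was high at 2 h and low at 12 h of amylin in its probe set 1421840_at. In 5.5 mM glucose, 1421840_at read 8.13 in untreated cells and, with 1, 10 and 20 µM amylin, 8.51, 8.75 and 8.14 at 2 h, 7.45, 7.38 and 7.41 at 12 h and 8.24, 7.81 and 7.55 at 24 h. The 12 h arrays at this glucose level lay within 0.1 of each other and below the rest.
In 22.7 mM glucose it read 8.53 in untreated cells and 9.01, 8.54 and 8.10 at 2 h, 7.56, 7.95 and 8.07 at 12 h and 7.92, 8.01 and 7.74 at 24 h. Here the arrays of 12 and 24 h overlapped, and the drop after 2 h shrank with dose until the array of 20 µM at 12 h nearly matched that at 2 h.

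Across both glucose levels the values of Abca1 1421840_at at 2 h ran from 8.10 to 9.01 (mean 8.51 ± 0.351, SD, n = 6). Those at 12 h ran from 7.38 to 8.07 (7.64 ± 0.300, SD, n = 6), without overlap. Of the 7436 genes that passed the filter, 0.309% were lower at 12 h without overlap and 2.56% were lower in all 6 pairs of arrays matched on glucose and dose. Because this contrast chose the gene, nothing is read from these shares. The fitted difference was -0.87, a level 0.547 times that at 2 h. Pair differences ran from -1.46, at 22.7 mM with 1 µM, to -0.03, at 22.7 mM with 20 µM, the pair closest to failing the choice. The difference was -1.05 in 5.5 mM and -0.69 in 22.7 mM glucose. It was -0.85 without the 2 arrays that stood apart.

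**Figure D2:**
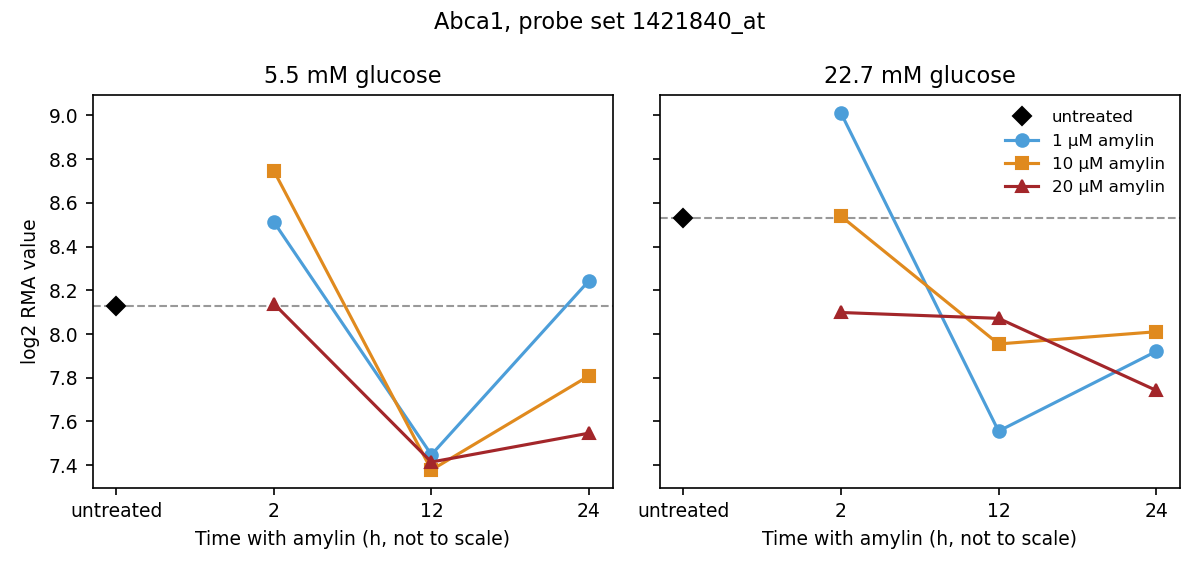
Log2 RMA values of the Abca1 probe set 1421840_at, 1 array per point, by time with amylin in h (not to scale) in 5.5 mM (left) and 22.7 mM glucose (right), with colours for 1, 10 and 20 µM and a black diamond and dashed line for the untreated array. In 5.5 mM glucose the 12 h arrays meet between 7.38 and 7.45, and in 22.7 mM they spread from 7.56 to 8.07.

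Scan day, recorded for 18 arrays, was not balanced over time. On 1 day, 2 arrays of 2 h, both at 22.7 mM, averaged 8.77 for Abca1, and 2 of 12 h, both at 5.5 mM, averaged 7.40. On another, the only array of 2 h, at 5.5 mM, read 8.75 and 2 arrays of 12 h, both at 22.7 mM, averaged 8.01. On both days time and glucose cannot be told apart, and the lower values at 12 h are part of what chose the gene.

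At 24 h Abca1 1421840_at was between its levels at 2 and 12 h, with a range of 7.55 to 8.24 and a mean of 7.88 ± 0.239 (SD, n = 6). It was lower than at 2 h in 6 of 6 pairs, as were 2.23% of genes, by a fitted -0.63, which shares the 2 h arrays with the choice and is likewise a description. With scan day as a block this value was -0.98. Against the untreated arrays, at 8.13 and 8.53, the 24 h arrays were not used in the choice and could be tested. Abca1 was lower in 5 of 6, by -0.45 (SE 0.171), and this did not pass adjustment over all genes (limma adjusted p = 0.541). The other Abca1 probe sets had differences of 0.04 (1421839_at, higher in 4 of 6) and 0.20 (1450392_at, higher in 5 of 6), and neither passed (limma adjusted p = 0.946 and 0.662). The actin 3′ minus 5′ signal was 1.395 and 2.404 in the untreated arrays of 5.5 and 22.7 mM, and all 6 arrays of 24 h lay below the untreated array of their glucose level, at 0.987 to 1.29 and 1.19 to 1.96. With that signal in the model the difference of 1421840_at was -0.59. The term for the signal is fitted over all arrays, those of the choice included, so this value is a description. No gene passed for this contrast (0%), and 650 of 7436 (8.74%) had an unadjusted p under 0.05. In an additive model with scan day, added after the data were seen, the difference was -0.88. In the model with a term for each amylin condition, blocked on scan day, it was -0.87. The scan day terms of both fits draw on the 2 and 12 h arrays that chose Abca1, so both values are descriptions with no test. Over all 18 treated arrays Abca1 1421840_at averaged 8.01 against 8.33 in the untreated, a description because they include the 2 and 12 h arrays of the choice.

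Dose and glucose were independent of how Abca1 was chosen, and neither passed. With 20 µM its mean was 7.84, against 8.12 with 1 µM, a difference of -0.28 (SE 0.121, lower in 5 of 6 pairs, limma adjusted p = 0.998). No gene passed for dose (0%), and 2.37% had an unadjusted p under 0.05. In 22.7 mM glucose the mean was 8.14 ± 0.432 and in 5.5 mM 7.94 ± 0.489 (SD, n = 10 each), a difference of 0.21 (SE 0.0937, higher in 7 of 10 pairs, limma adjusted p = 0.201). The pairs differed in sign: at 12 h all 3 pairs were higher in 22.7 mM, by 0.11, 0.58 and 0.66, and at 2 h they were 0.50, -0.21 and -0.04.

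The 3 Abca1 probe sets did not move together. At 12 minus 2 h, 1421839_at differed by -0.26 (lower in 4 of 6 pairs) and 1450392_at by -0.05 (lower in 2 of 6), against -0.87 for 1421840_at. In 22.7 minus 5.5 mM glucose they differed by -0.24 (SE 0.102, limma adjusted p = 0.228) and -0.18 (SE 0.0695, limma adjusted p = 0.167), each lower in 9 of 10 pairs and opposite in sign to 1421840_at. Over the 20 arrays 1421840_at had Pearson r = 0.25 with 1421839_at and 0.04 with 1450392_at. These correlations describe arrays that share cell line and normalization. The dimmer probe sets lay below the filter, and what each reads from the transcript was not tested.

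Abcg1, the partner exporter, rose with glucose, and it was the member whose difference passed the test. In 5.5 mM glucose it read 8.75 in untreated cells and, with 1, 10 and 20 µM amylin, 8.82, 8.90 and 8.65 at 2 h, 8.53, 8.67 and 8.44 at 12 h and 8.91, 8.76 and 8.72 at 24 h. In 22.7 mM it read 9.07 untreated and 9.42, 9.18 and 9.11 at 2 h, 9.09, 9.15 and 9.11 at 12 h and 8.96, 8.91 and 9.01 at 24 h. The glucose groups met only at 8.91, where the highest array of 5.5 mM, that of 1 µM for 24 h, lay just above the lowest of 22.7 mM, that of 10 µM for 24 h.
The means were 9.10 ± 0.140 and 8.71 ± 0.150 (SD, n = 10 each), and Abcg1 was higher in 22.7 mM in 10 of 10 pairs, by 0.39 (SE 0.0705, 95% interval 0.24 to 0.54), or 1.31-fold (limma adjusted p = 0.0114). By the same test 5.49% of the genes were called, 3.63% as higher, and 1.92% were higher in every pair. Glucose groups did not overlap for 0.121% of genes, which does not include Abcg1.

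**Figure D3:**
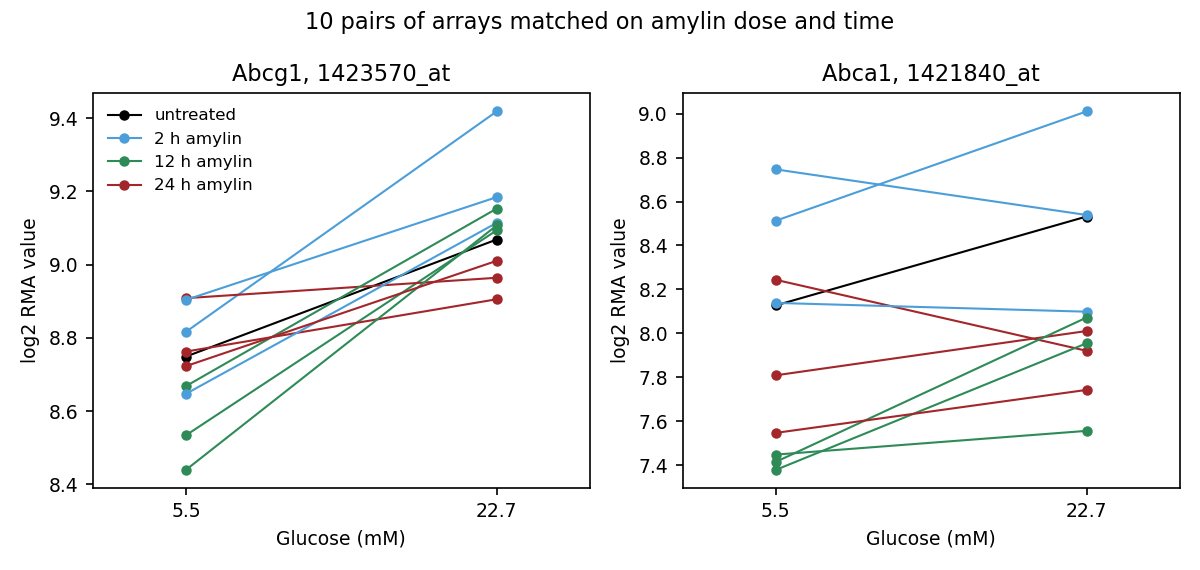
Each line joins the log2 RMA values of 2 arrays of the same amylin dose and time in 5.5 and 22.7 mM glucose, coloured by time, for Abcg1 1423570_at (left) and Abca1 1421840_at (right), on separate y axes. All 10 lines rise for Abcg1 and 7 of 10 for Abca1.

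The pair differences of Abcg1 were unequal in size. They were 0.32 in untreated cells, 0.60, 0.28 and 0.47 at 2 h, 0.56, 0.48 and 0.67 at 12 h, and 0.06, 0.14 and 0.29 at 24 h, in order of dose. The smallest were at 24 h. Put as a time difference, 24 minus 2 h was 0.01 in 5.5 mM and -0.28 in 22.7 mM, and the test of that gap did not pass (-0.29, SE 0.157, limma adjusted p = 0.481). No gene passed for either glucose by time term (0%).

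RNA quality moved with glucose across the same pairs. The actin 3′ minus 5′ signal was higher in 22.7 mM glucose in every matched pair, as Abcg1 was. When the model held the actin signal ratio as a covariate, the Abcg1 difference was 0.41 with a larger SE of 0.126, and it no longer passed (limma adjusted p = 0.293). No gene in the table passed in that fit. Without the 2 arrays that stood apart the difference was 0.40 (limma adjusted p = 0.00511), and it passed with any single array left out, from 0.36 to 0.42. Within scan days Abcg1 averaged 9.11 against 8.74 (1 array at 22.7 mM and 3 at 5.5 mM), 9.16 against 8.61 (4 and 3) and 9.04 against 8.91 (4 and 2), higher in 22.7 mM on each. Amylin times were not matched within a day, so these averages mix time with glucose. In the second comparison both 12 h arrays were at 5.5 mM, and in the third both were at 22.7 mM.

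Over time and dose no difference in Abcg1 passed. It was lower at 12 than at 2 h in 6 of 6 pairs, as were 2.56% of genes, with means of 8.83 ± 0.322 and 9.01 ± 0.279 (SD, n = 6 each) that overlapped. The difference of -0.18 (SE 0.0910) did not pass (limma adjusted p = 0.584), where 0.108% of genes were called. At 24 minus 2 h it was -0.14 (SE 0.0910, lower in 4 of 6 pairs, limma adjusted p = 0.730), where 0.0538% were called. For 20 minus 1 µM it was -0.12 (SE 0.0910, limma adjusted p = 0.998). Treated and untreated arrays both averaged 8.91, with a 95% interval of the difference of -0.25 to 0.25, and no gene was called for amylin (0%, with 5.63% at an unadjusted p under 0.05).

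**Figure D4:**
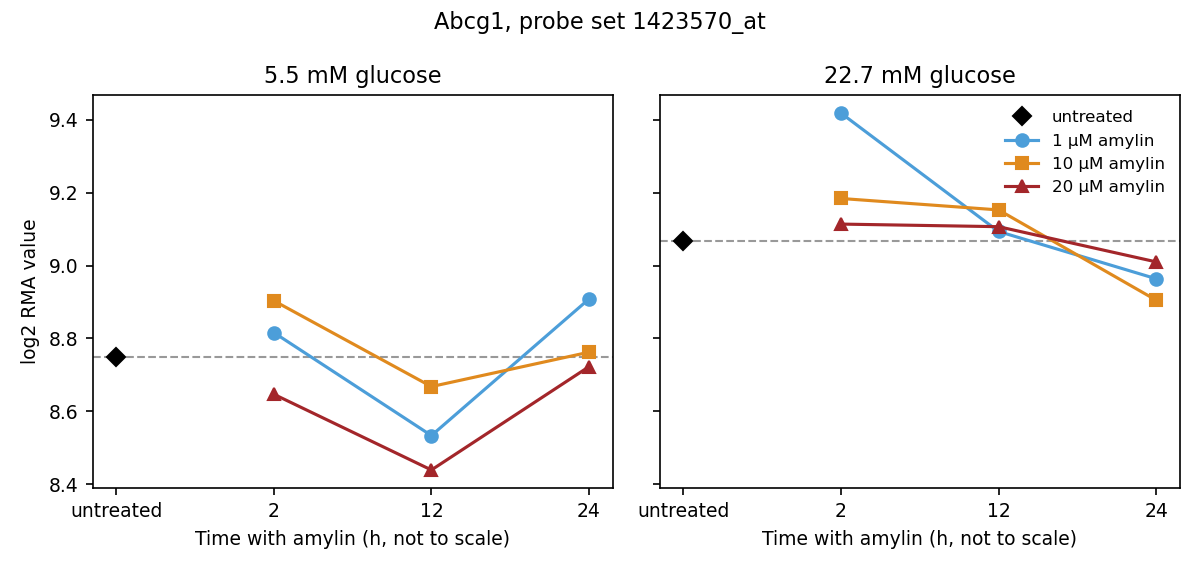
Log2 RMA values of the Abcg1 probe set 1423570_at, 1 array per point, by time with amylin in h (not to scale) in 5.5 mM (left) and 22.7 mM glucose (right), with colours for 1, 10 and 20 µM and a black diamond and dashed line for the untreated array. Points in 5.5 mM lie between 8.44 and 8.91 and those in 22.7 mM between 8.91 and 9.42.

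The relation between the 2 exporters differed by probe set. Over the 20 arrays Abca1 1421840_at and Abcg1 had Pearson r = 0.61, and 0.68 over the 18 without the arrays that stood apart, while the other Abca1 probe sets had -0.11 (1421839_at) and -0.23 (1450392_at) with Abcg1 over the 20. Abca1 1421840_at and Abcg1 each had their highest array in 22.7 mM glucose with 1 µM for 2 h, at 9.01 and 9.42.

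Apoe, the lipid acceptor, stayed near the low end of its range on most arrays. In 5.5 mM glucose its values ran from 5.19 to 5.94 with a median of 5.42, and in 22.7 mM from 5.21 to 5.54 with a median of 5.42. Its highest arrays were those of 24 h in 5.5 mM, at 5.94 with 10 µM and 5.67 with 20 µM. The first is 1 of the 2 arrays that stood apart.
Glucose gave -0.08 (SE 0.0741, lower in 5 of 10 pairs, limma adjusted p = 0.668), in a fit over all 20380 probe sets where 5.34% were called. All 6 arrays of 24 h lay above the untreated array of their glucose level, at 5.33 and 5.27, by 0.25 on average (SE 0.135), which did not pass (limma adjusted p = 0.662). Over all 18 treated arrays, 16 lay above it, by 0.14 on average (SE 0.124, limma adjusted p = 0.822). Both counts rest on 1 untreated array per glucose level, so they are not counts of separate pairs. All 6 arrays of 24 h also had a lower actin 3′ minus 5′ signal than that untreated array, and its part was not tested. At 12 and 24 minus 2 h the differences were -0.05 and 0.14, and for 20 minus 1 µM 0.02, none of which passed, where 0.0491%, 0.0147% and 0% of probe sets were called.

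Nr1h3, which encodes the sterol receptor LXRα, was the most even member apart from 2 arrays. Values ran from 6.88 to 7.35 in 5.5 mM (median 7.03) and from 6.92 to 7.60 in 22.7 mM glucose (median 7.05). The 2 highest were the arrays that stood apart, at 7.35 and 7.60, and all others lay at or below 7.23.
No contrast passed: the difference was 0.05 (SE 0.0767, limma adjusted p = 0.841) for glucose, 0.04 at 12 minus 2 h, 0.01 at 24 minus 2 h, -0.03 for 20 minus 1 µM and 0.08 for amylin minus untreated. Without the 2 arrays the values for both times and for dose changed sign, to -0.03, -0.04 and 0.05. The 95% intervals were -0.11 to 0.22 for the glucose difference and -0.17 to 0.25 for 12 minus 2 h. They rest on the spread between these arrays, which may be technical, so they do not bound a difference between separate cultures.

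**Figure D5:**
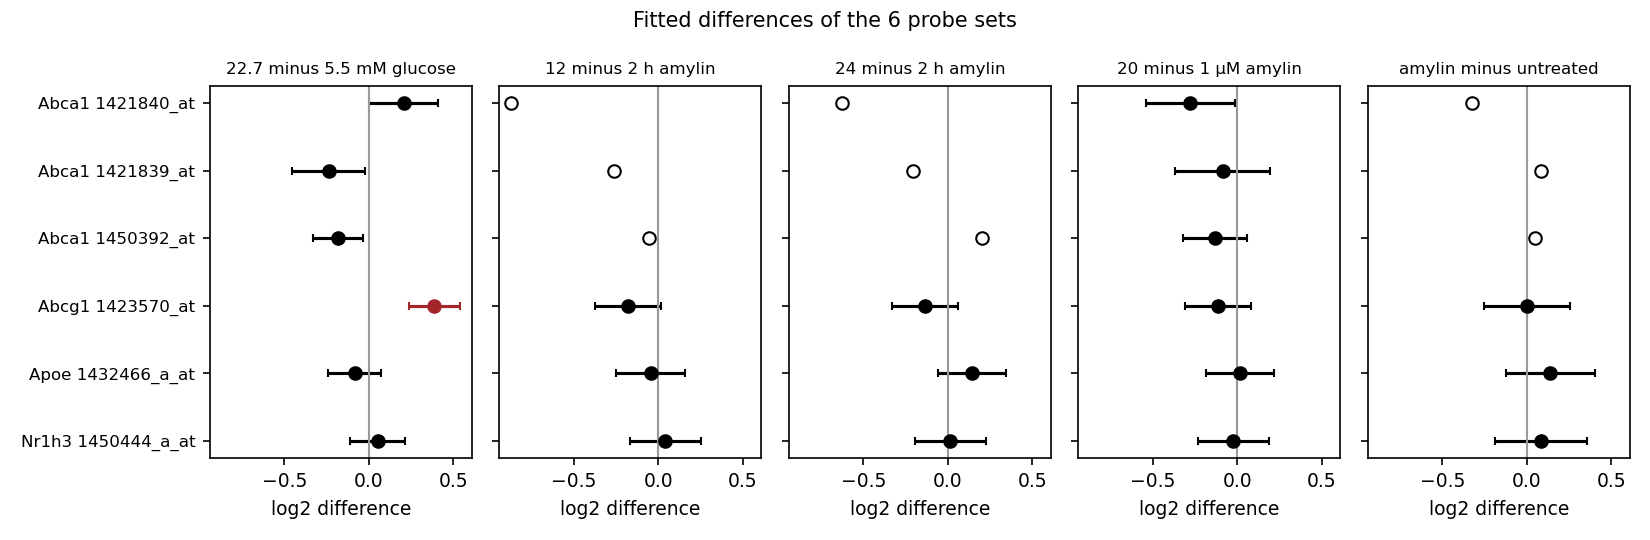
Fitted log2 differences of the 6 probe sets in 5 contrasts, with 95% intervals from the fit over all 20380 probe sets. Red marks an adjusted p under 0.05, which only Abcg1 reached, for glucose, and open circles without intervals are the Abca1 values that share arrays with its choice, down to -0.87.

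With the glucose levels averaged, the conditions ordered Abca1 from 8.76 (1 µM, 2 h) and 8.64 (10 µM, 2 h) through untreated cells at 8.33 to 7.64 (20 µM, 24 h) and 7.50 (1 µM, 12 h). Abcg1 ran from 9.12 (1 µM, 2 h) to 8.77 (20 µM, 12 h), Apoe from 5.74 (10 µM, 24 h) to 5.30 (1 µM, 12 h), and Nr1h3 from 7.35 (1 µM, 12 h) to 6.92 (10 µM, 12 h). No neighbours in any of these orders differed by more than the larger gap between their own glucose levels.

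Among all genes that passed the filter, those most like Abca1 over the 20 arrays were Lpin1, a phosphatidate phosphatase (Pearson r = 0.79), Nab2, a co-repressor of EGR factors (0.79), Relb, an NF-κB subunit (0.78), Ncam1, a cell adhesion molecule (0.77), and Pclo, a presynaptic scaffold protein (0.75). Each was lower at 12 than at 2 h, from -0.31 in Pclo to -0.63 in Nab2. These genes were picked for likeness to a probe set chosen for that drop, so their drop follows in part from the picking. The genes least like it were Ube2c, a mitotic ubiquitin-conjugating enzyme (-0.78), Asf1b, a histone chaperone (-0.69), and Rbm6, an RNA-binding protein (-0.69). The genes most like Abcg1 were Nop10 (0.86), Slc44a1, a choline transporter (0.84), and Mgarp (0.84), with glucose differences of 0.33, 0.36 and 0.34. Those differences likewise follow in part from picking genes that resemble Abcg1.
For Apoe they were Myoz3 (0.87), Cdh16 (0.86) and Izumo1r (0.85), and for Nr1h3 Plekho2 (0.92), Ltc4s (0.90) and Tgm3 (0.90). Without the 2 arrays that stood apart, the value for Plekho2 was 0.69 and that for Ltc4s 0.57. These are descriptions over 20 arrays that share a cell line and a normalization.

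Other genes of the pathway were called for glucose in single cases. Among 13 tested targets of LXR, 1 rose, Elovl5, a fatty acid elongase (0.39, limma adjusted p = 0.0481). Of 10 partners and co-regulators of LXR, 1 rose, Rxrb, a retinoid X receptor that pairs with LXR (0.29, higher in 10 of 10 pairs, limma adjusted p = 0.0373). Among 7 other ABC transporters of subfamilies A and G, 1 rose, Abca3, a phospholipid transporter (0.30, limma adjusted p = 0.0443).
Of 19 genes of cholesterol uptake, storage and transport inside the cell, 1 rose, Osbpl1a, an oxysterol-binding protein relative (0.31, limma adjusted p = 0.0473). Among 21 targets and regulators of SREBP2, the factor that drives cholesterol synthesis, 1 rose, Lss, lanosterol synthase (0.23, limma adjusted p = 0.0434). None of 6 other apolipoprotein and lipid transfer genes passed, and none of any list fell (1.86% of all genes did). The medians were 0.12, 0.14, 0.10, 0.04, 0.04 and, for the apolipoprotein list, 0.09, against 0.04 over all genes tested. These counts stand beside 5.49% of all genes, and nothing about the lists is read from them. With the actin signal as a covariate none of these genes passed. Without a filter on low values, 0 passed among the LXR targets, ABC transporters, uptake genes and SREBP2 genes. Without the 2 arrays that stood apart, more genes passed in some of the lists. The number called over all genes also varied by fit, from 98 to 657 with each array left out, so nothing is read from these changes.

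No gene of these lists passed for time, dose or amylin. At 12 minus 2 h, the contrast in which Abca1 1421840_at was lower, 10 of 13 tested LXR targets had a negative difference. Their median was -0.12, against 0.02 over all genes, of which 44.4% were negative. As many, 10 of 13, were negative for amylin minus untreated and for 24 h minus untreated, where 65% and 63.2% of all genes were. No set test was run, and nothing about the lists is read from such counts. The largest differences of LXR targets at 12 minus 2 h were those of Smpdl3a, a phosphodiesterase (-0.44, SE 0.128, limma adjusted p = 0.222), and Mlxipl. Mlxipl encodes the glucose-sensing factor ChREBP and went the other way (0.34, SE 0.231, limma adjusted p = 0.746). Smpdl3a was also lower in all 6 arrays of 24 h than in untreated cells (-0.61, SE 0.182, limma adjusted p = 0.498).
Among SREBP2 genes at 12 minus 2 h, Tm7sf2 (-0.28) and Nsdhl (0.27), both enzymes of sterol synthesis, had the largest differences and did not pass (limma adjusted p = 0.532 and 0.236). For 24 h against untreated, 18 of the 21 were lower, with a median of -0.19 against -0.06 over all genes, of which 63.2% were lower. Hmgcs1, which makes the precursor of mevalonate, had -0.66 and Dhcr7, a late enzyme of cholesterol synthesis, -0.53, each lower in 6 of 6 arrays, and neither passed (limma adjusted p = 0.570 and 0.542). The values for 24 h against untreated, that of Smpdl3a included, rest on 1 untreated array per glucose level and on arrays whose actin 3′ minus 5′ signal was lower at 24 h in 6 of 6, and its part in them was not tested.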

How the data were processed

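The authors deposited 1 log2 value per probe set and array, made with RMA in affy 1.12.2 under R 2.4.0 per the submitters' processing notes. A single RMA run for all arrays is not stated in the sources used here. Scanner descriptions of 18 arrays gave the scan day. Arrays hold no counts, and their number limits the precision. Groups came from the sample titles.

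Probe sets listed with exactly 1 gene were used. For gene calls, the probe set of highest mean stood for a gene and the lowest 40% of 12393 genes were left out. Differences were fitted with limma 3.58.1 in R 4.3.3 (lmFit, then eBayes with trend=TRUE) with a glucose term and a factor for the 10 amylin conditions, leaving 9 residual degrees of freedom, and adjusted over 7436 genes by the Benjamini-Hochberg method at 0.05. P-values for Apoe, Nr1h3 and the dimmer Abca1 probe sets come from the same fit over 20380 probe sets without a filter. Glucose by time terms were fitted with 8 residual degrees of freedom. Nothing shows separate cultures for each array, so p-values measure only the spread between these arrays, which may be technical. The scripts were tested on simulated data.

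The members and gene lists were chosen with earlier results of these data known. Named genes are the members, up to 4 called genes per list and contrast or otherwise the 2 of largest difference, and the genes most and least like a member by Pearson r. Alternatives covered filters, scaling, the variance model, an additive model, scan day, RNA quality, the treated arrays by themselves, the 2 arrays without a scanner description, and each array left out in turn.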

Additional observations from a re-analysis of the deposited data

Results flagged for a closer look

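In 4 of 30 groups of 6 or 10 arrays, 1 value lay farther from the rest than Dixon's criterion allows, where chance gives about 1 in 20. The groups share arrays and are not independent, and the Nr1h3 value of 7.60 counts in 2 of them, so the count is not set against chance. Nr1h3 read 7.60 in 22.7 mM glucose with 1 µM amylin for 12 h, against 7.23 for the next highest of the 10 arrays at 22.7 mM and 7.11 for the next highest of the 6 arrays of 12 h. It read 7.35 in 5.5 mM with 10 µM for 24 h, against 7.11 for the next highest of the 10 arrays at 5.5 mM. The Abca1 probe set 1421839_at read 6.03 in 22.7 mM with 1 µM for 12 h, against 5.73 for the next highest of the 6 arrays of 12 h. All of these values come from the 2 arrays that have no scanner description and stood apart from the other 18, and the cause was not tested.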

How the results depend on the processing

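The glucose difference kept its sign in the alternatives run for Abcg1, Apoe, Nr1h3 and Abca1 1421840_at, whose size ranged from 0.080 to 0.35, while the other Abca1 probe sets had the opposite sign. For Abca1 at 12 minus 2 h, where the choice of the gene fixed the sign, values ran from -0.96 to -0.85, and from -0.95 to -0.79 with each array left out. Abcg1 lost its glucose call with the actin 3′ minus 5′ signal as a covariate (0.41). For Abca1, 24 minus 2 h moved to -0.98 with scan day as a block and -0.99 in the additive model with scan day, chosen after seeing the data. In the latter 24 h minus untreated was -0.88, a description because the scan day terms draw on the arrays of the choice. The sign of small differences turned. For Nr1h3, 24 minus 2 h was -0.014 with arrays centred on medians, -0.0084 after quantile normalization, -0.036 without the 2 arrays that stood apart and -0.022 in the additive model with scan day. In the last 2 settings its 12 minus 2 h was -0.033 and -0.091, and its 20 minus 1 µM 0.049 and 0.12. Amylin minus untreated for Abcg1 was 0.089 after quantile normalization, and Apoe had -0.031 for dose and 0.023 for 12 minus 2 h in the additive model with scan day. With each array left out, ranges spanned 0 for Abcg1 with amylin (-0.038 to 0.037), for Apoe at 12 minus 2 h (-0.100 to 0.0091) and by dose (-0.037 to 0.071), and for Nr1h3 at 12 minus 2 h (-0.039 to 0.12), at 24 minus 2 h (-0.045 to 0.074), by dose (-0.11 to 0.055) and with amylin (-0.014 to 0.18). The causes were not tested. Over all genes, called numbers with each array left out ran from 98 to 657 for glucose (408 with all), 4 to 39 at 12 minus 2 h (8), 0 to 143 at 24 minus 2 h (4) and 0 to 122 at 24 h minus untreated (0). Scan day as a block could give no value for 12 minus 2 h, dose or the mean of amylin, and the mean of all Abca1 probe sets fell below the filter. The labels number no replicates, so no replicate block could be added to the matching on amylin condition that the fit already holds.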
